A study of Mus musculus with 6 samples.

Results

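Homeobox genes encode transcription factors that bind DNA through a homeodomain, a small helical fold that reads short AT-rich sites such as TAAT. Families of them are used in overlapping combinations to set regional identity along the body axis, in the head and eye and in the appendages, and many are kept on in adult epithelia. The Meis and Pbx proteins, of the TALE class, bind DNA together with Hox and other homeodomain proteins. Here the genes were taken from a single table of 6 bulk RNA-seq libraries by the start of their symbol: Hoxa, Hoxb, Hoxc, Hoxd, Dlx, Pitx, Msx, Irx, Lhx, Otx, Barx, Meis, Pbx, Emx, Alx, Prrx, Tshz or the sine oculis symbol (as in Six2), each followed by a digit. This gave 67 of the 17866 genes in the table. The table's own InterPro annotation assigned a homeobox to 67 of the 67 and its Pfam annotation to 64, the exceptions being Tshz1, Tshz2 and Tshz3, the vertebrate teashirt genes, whose proteins also carry zinc fingers. Family members with no row in the table were not analysed here. The table held 0 genes without counts in all 6 libraries, so a missing row may mean that a gene was not detected.

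The libraries were made from separated corneal epithelium of C57BL/6 mice at 6 months of age, 3 labelled wild type (WT) and 3 labelled Rela-/- (KO), and the study describes them as independent biological samples. Rela encodes p65, a DNA-binding subunit of canonical NF-κB. According to the study's methods the KO mice were Krt14-Cre; Rela f/f, so that the floxed allele was deleted wherever the Krt14 promoter was active. In the study's lineage tracing this included limbus, conjunctiva, meibomian gland, skin and oral mucosa as well as cornea. Whether the WT mice carried the floxed allele or the Cre is not given in the sources used here. The question asked of the comparison was what kind of epithelium had formed in the mutants.

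Library totals lay between 20158404 and 20880347 estimated counts, and 3 counts, taken here as the limit of detection, corresponded to 0.137 to 0.152 CPM (counts per 1000000 after TMM scaling). Rela had 1871, 1844 and 1855 counts in WT against 318, 223 and 313 in KO, so it was lower in every library labelled KO. Of 8 corneal epithelial markers 7 were lower in KO and 0 higher, and Krt12, the corneal keratin, had 755776 to 811469 counts in WT and 109690 to 161317 in KO, or 19.5% of its WT level. Of 7 tested epidermal markers 6 were higher in KO and 1 lower, and the summed level of the whole list was 19.9 to 33.1 FPKM (fragments per kilobase of gene length and 1000000 reads) in WT and 8010 to 12300 FPKM in KO. In bulk RNA of this kind, fewer cells of a type and less RNA per cell cannot be told apart.

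In the KO epithelium Pitx1, Barx2, Tshz3, Msx2, Dlx5, Six2 and the neighbours Irx1, Irx2 and Irx4 were higher than in WT, along with a small rise of Irx5. Emx2, Tshz2, Meis2, Six5, Otx1 and Pbx3 were lower. No Hox gene exceeded 11 counts in a library. Of the 67 homeobox genes, 26 passed the count filter (filterByExpr) and were tested with edgeR. At an adjusted p of at most 0.05, 10 of the 26 were higher in KO, 6 were lower and 10 did not pass. Over all 13305 tested genes 31.8% were higher and 30.2% lower. The called share of the tested homeobox genes was 61.5%, against 62.0% for all genes, so they were not called more often than the background. At the study's own threshold (adjusted p of at most 0.001 and at least a 2-fold change) 6 of the 26 were higher, or 23.1%, beside 11.6% of all tested genes, and 4 were lower, or 15.4%, beside 8.24% of all tested genes. Irx1, Irx2 and Irx4, among these 6, had 0 to 2 counts in each WT library. They passed the count filter through KO alone, so a large rise was built into their entry to the test. The number of such genes among all tested genes was not counted, and the difference in shares was not tested. The median absolute log2 fold change was 0.91 for the tested homeobox genes and 0.53 for all tested genes, while the median signed value was 0.18 and 0.01. The 41 genes that were not tested comprised 29 with at most 3 counts in every library and 12 with more than that in some library but below the count filter of the test.

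**Figure D1:**
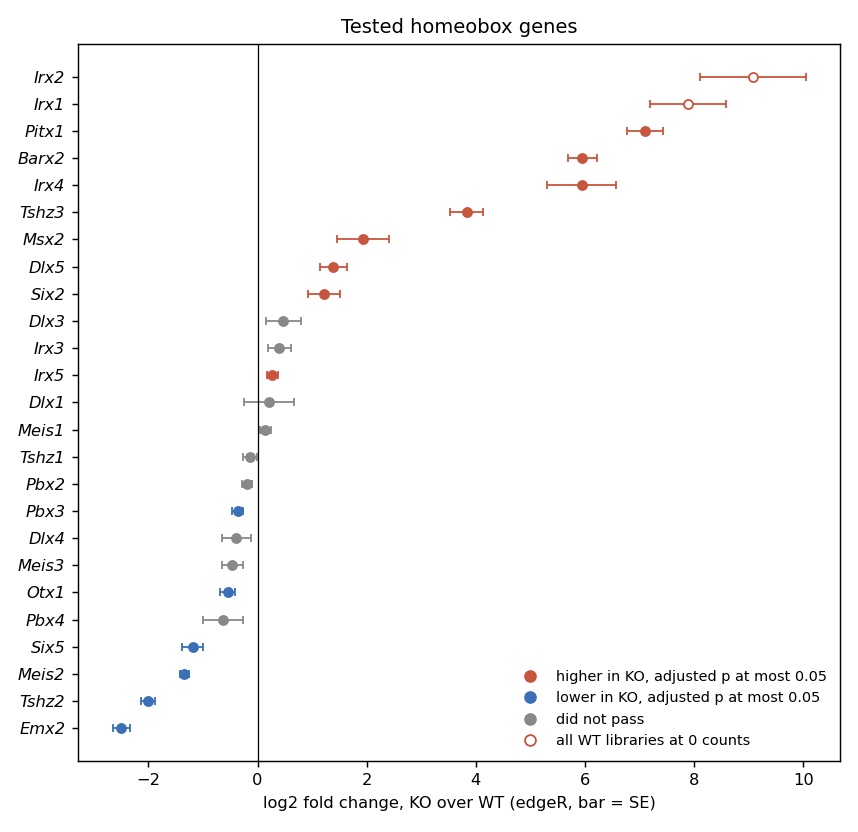
Log2 fold change, KO over WT, of 25 of the 26 tested homeobox genes, in order of size, with bars of 1 SE from edgeR (3 libraries per group). Filled red points are higher and blue points lower at an adjusted p of at most 0.05, grey points did not pass, and open points mark Irx1 and Irx2, whose WT libraries were all at 0 counts, so that the fitted value has no fixed size. The values run from -2.50 for Emx2 to 7.10 for Pitx1 among genes with counts in both groups.

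Promoter sequence from RefSeq (GRCm38.p6), the 250 bases before an annotated start, was matched to 40 of the 67 genes and to 15 of the 26 tested. Pitx1, Barx2, Irx1 and Otx1 had no entry. The κB consensus, the site bound by NF-κB dimers, was searched on both strands as GGGRNNYYCC (R a purine, Y a pyrimidine, N any base). It was present in 7.3% of the windows of all genes, in 3 of 46 windows of the matched homeobox genes (6.5%) and in 0 of the 15 windows of the tested ones. At the rate of all genes, 0 of 15 windows does not show an absence of sites. Sites further from the start, where the study placed its RelA site of Aldh1a1, were not searched. The core TAAT, on either strand, was present in 54.9% of the windows of all genes, in 4 of 4 windows of genes lower in KO (Emx2, Meis2, Six5 and Tshz2), in 3 of 5 windows of genes higher in KO and in 0 of 6 windows of genes that did not pass. The windows of the higher genes were richer in G and C, with a median of 68.4% and 22 CpG, than those of the lower genes, with 55.8% and 10 CpG. All windows had medians of 52.4% and 6 CpG. These are descriptions of a small number of windows, with 1 annotated start for each tested gene, and 10 of the 15 windows of tested genes held annotated exon bases (GENCODE M21). The windows below are those of called genes on the plus strand that were free of annotated exons, Irx4 being shortened to the 232 bases before its exon. They are written 5′ to 3′ in lower case with TAAT, or ATTA where the core is on the other strand, in capitals. Irx2 (chr13:72628570-72628819), Irx4 (chr13:73260247-73260478) and Tshz3 (chr7:36697868-36698117) belong to genes higher in KO, and Six5 (chr7:19094294-19094543) and Tshz2 (chr2:169632259-169632508) to genes lower in KO. The RefSeq start of a window can differ from the gene start in the expression table. By the latter, the windows of Irx4, Tshz3 and Six5 lie inside the gene and that of Irx2 runs past its start. Only the Tshz2 window ends before the gene.
Irx2: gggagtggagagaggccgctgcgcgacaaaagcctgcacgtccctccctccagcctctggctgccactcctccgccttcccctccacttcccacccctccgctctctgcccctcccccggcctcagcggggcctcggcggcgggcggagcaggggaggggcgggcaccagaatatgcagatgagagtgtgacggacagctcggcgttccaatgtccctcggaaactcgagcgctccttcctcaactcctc
Irx4: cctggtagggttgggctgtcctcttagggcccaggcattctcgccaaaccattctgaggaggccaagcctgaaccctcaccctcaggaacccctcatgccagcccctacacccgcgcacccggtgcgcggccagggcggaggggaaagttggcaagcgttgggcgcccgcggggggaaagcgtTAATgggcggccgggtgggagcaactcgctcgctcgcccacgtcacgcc
Tshz3: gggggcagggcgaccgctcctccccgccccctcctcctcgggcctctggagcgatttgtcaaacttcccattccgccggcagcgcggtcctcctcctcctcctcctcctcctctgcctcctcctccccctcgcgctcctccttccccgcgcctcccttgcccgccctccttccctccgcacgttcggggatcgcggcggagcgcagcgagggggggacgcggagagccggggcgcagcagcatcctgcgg
Six5: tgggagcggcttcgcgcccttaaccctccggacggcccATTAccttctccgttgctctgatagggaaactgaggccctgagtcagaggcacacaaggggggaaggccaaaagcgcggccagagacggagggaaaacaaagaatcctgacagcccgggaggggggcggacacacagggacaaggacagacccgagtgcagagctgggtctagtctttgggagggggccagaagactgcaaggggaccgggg
Tshz2: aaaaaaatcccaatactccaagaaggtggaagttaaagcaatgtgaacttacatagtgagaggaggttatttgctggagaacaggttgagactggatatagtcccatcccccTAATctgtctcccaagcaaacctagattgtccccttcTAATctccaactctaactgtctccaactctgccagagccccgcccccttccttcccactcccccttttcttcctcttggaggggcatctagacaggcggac

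Per length of gene, the most abundant of the 67 genes in the KO libraries were Pitx1 and Barx2, both low in WT (means of 0.63 and 1.01 FPKM). Pitx1 (gene 18740, chr13:55825044-55836193), the paired-like factor that sets hindlimb identity and acts in pituitary development, had 33, 46 and 14 counts in WT against 4937, 3286 and 3597 in KO. All 3 KO libraries lay far above all 3 WT libraries. Mean CPM ± SD (n = 3) was 1.44 ± 0.741 for WT and 198 ± 45.6 for KO, a fitted log2 change of 7.10 (SE 0.334, edgeR adjusted p = 1.54e-06). In the annotation Pitx1 shares 165 exon bases with an antisense gene and 108 with a noncoding gene on its own strand, and whether counting used strand is not stated.

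Barx2 (gene 12023, chr9:31846044-31913285), a BarH-like factor of craniofacial and glandular epithelia, had 20, 40 and 52 counts in WT. The KO libraries had 2395, 1915 and 2127 counts, with a narrow spread and no overlap with WT. Mean CPM ± SD (n = 3) rose from 1.75 ± 0.779 to 108 ± 12.7, a fitted log2 change of 5.95 (SE 0.268, edgeR adjusted p = 1.3e-06). Neither gene lost its call in any of 15 alternative analyses, in which the log2 fold change of Pitx1 ran from 5.66 to 7.5 and that of Barx2 from 4.90 to 6.29.

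**Figure D2:**
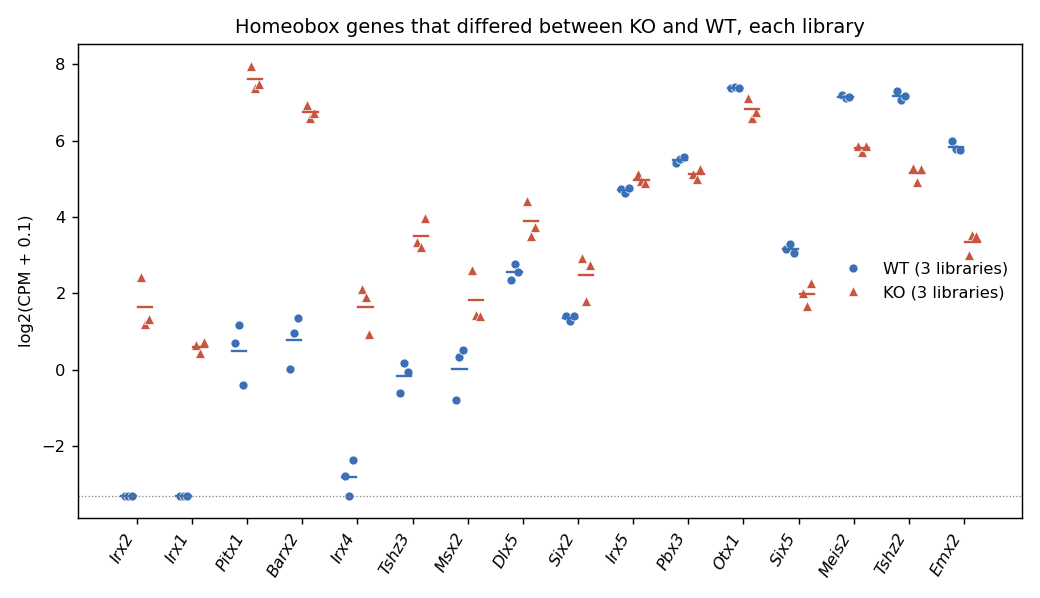
Level of the 16 homeobox genes called in either direction, as log2(CPM + 0.1), in each of 3 WT libraries (blue circles) and 3 KO libraries (red triangles), with a short bar at the mean of the log values. The dotted line marks 0 counts, where Irx1 and Irx2 lie in all WT libraries. The groups do not overlap for any of the 16, which were chosen by their call, and the share without overlap among all called genes was not counted.

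The 6 Iroquois genes of the table lie in 2 clusters, of which 1 was at or near 0 in WT and the other was partly on. These genes pattern the heart, the nervous system and the limb. Irx1, Irx2 and Irx4 lie in this order on chr13, with gaps of 665.1 and 625.4 kb between them. Irx1 (chr13:71958232-71963723) had 0 counts in each WT library and 29, 25 and 31 counts in KO. Irx2 (chr13:72628797-72634196) had 0 counts in each WT library and 104, 43.3 and 48.5 counts in KO, so that KO 1 was highest. Irx4 (chr13:73259590-73269622), known as a ventricular factor of the heart, had 1, 0 and 2 counts in WT against 83, 73.1 and 36 in KO.

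Every KO library was thus above every WT library for all 3 genes of this cluster. Because these genes passed the count filter through KO alone, the lack of overlap followed from the filter and adds no support. Set against 3 counts over the WT group, Irx1 was at least 30.6-fold higher and Irx2 at least 70.1-fold higher in KO. Irx4 had a ratio of 69.0 with a 95% interval of 23.3 to 338 that covers counting error only. The tests gave adjusted p = 1.29e-04 for Irx1, 3.09e-04 for Irx2 and 8.72e-05 for Irx4 (edgeR). Levels remained low after the rise, at 0.667 ± 0.0611, 1.19 ± 0.607 and 1.29 ± 0.466 FPKM in KO (mean ± SD, n = 3), and the counts of Irx2 and Irx4 were partly shared by RSEM with other loci.

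The other cluster, Irx3, Irx5 and Irx6 on chr8, with gaps of 550.3 and 312.8 kb, held genes with counts in WT. Irx5 (chr8:92357796-92361456) had 581, 530 and 574 counts in WT against 684, 607 and 592 in KO, a fitted log2 change of 0.27 (SE 0.102, edgeR adjusted p = 0.0473). This call was lost in 12 of 15 alternatives, each of the 6 that left out a library among them, with adjusted p up to 0.181. Irx3 had 335, 349 and 337 counts in WT against 561, 377 and 313 in KO, the groups overlapped, and it did not pass (log2 fold change 0.40, adjusted p = 0.116), except without KO replicate 3 (0.58, adjusted p = 0.027). Irx6 had at most 0.08 counts in any library. The difference between the clusters was not tested.

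Of the 6 distal-less genes, which pattern the branchial arches and the ectoderm, 4 were tested and 1 was called. Dlx5 (chr6:6877801-6882068), a factor of the otic and olfactory placodes and of bone, had 109, 144 and 122 counts in WT against 418, 224 and 267 in KO. The highest WT library thus remained below the lowest KO library, and the log2 value fitted by edgeR was 1.39 (SE 0.245, adjusted p = 0.00133). Its neighbour Dlx6, 9.8 kb away, had 0 counts in WT against 6, 0 and 2 in KO, below the count filter. Dlx3, which acts in epidermal and hair differentiation, had 395, 291 and 266 counts in WT against 598, 222 and 395 in KO. The groups overlapped, with KO 2 below every WT library, and Dlx3 did not pass (log2 fold change 0.47, SE 0.320, adjusted p = 0.235), although without KO replicate 2 it did (0.76, adjusted p = 0.0232) and without KO replicate 1 it was at 0.06. Dlx1 and Dlx4 had log2 fold changes of 0.21 and -0.39 and did not pass, and Dlx1 turned to -0.24 without KO replicate 1. Dlx2 had 2 to 5 counts in WT and 3 to 10 in KO.

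Among the muscle-segment homeobox genes, effectors of BMP signalling in skin appendages and skull, Msx2 (chr13:53466881-53472780) had 10.3, 25.0 and 28.2 counts in WT against 119, 51.6 and 51.5 in KO. The groups did not overlap, and the highest value was again that of KO 1. The log2 value fitted by edgeR was 1.93 (SE 0.471, adjusted p = 0.00719). Msx1 had 0 counts in each WT library and 15, 5 and 14 in KO, at least 12.2-fold higher against 3 counts over the WT group. It fell below the count filter of the main test, and without that filter it was called higher by edgeR (adjusted p = 0.00372) and by DESeq2 (adjusted p = 2.24e-04). Msx3, a gene of the dorsal neural tube, was not detected.

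The sine oculis genes, named for the loss of eyes in the fly mutant, were low in both groups and moved in both directions. Six2, which maintains nephron progenitors, had 55.6, 50 and 54.1 counts in WT against 148, 67.5 and 131 in KO, a fitted log2 change of 1.22 (SE 0.292, edgeR adjusted p = 0.00637). Six5, whose human counterpart lies next to the myotonic dystrophy repeat, had 193, 207 and 175 counts in WT against 78, 61 and 95 in KO, and fell by 1.19 on the log2 scale (SE 0.186, adjusted p = 7.08e-04, edgeR). The groups were apart for both genes. Six3, a gene of the eye field and forebrain that lies 36.6 kb from Six2, had 0, 2.04 and 0 counts in WT against 17.4, 4.66 and 2.06 in KO. Its ratio was 12.9 with a 95% counting interval of 3.21 to 113, and most of its counts were those of KO 1. It was below the filter, and without it the adjusted p was 0.0404 by edgeR and 0.0388 by DESeq2. Six4 had 4.32 to 6.22 counts in WT and 7.94 to 13.5 in KO and was called without KO replicate 2 only (adjusted p = 0.0372), and Six6, also known from eye development, was not detected.

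The 3 teashirt genes went 3 ways. Tshz2 (gene 228911, chr2:169632677-170072751) had 3416, 2863 and 3033 counts in WT against 772, 601 and 763 in KO. Every KO library was under the lowest WT library, and 24.8% of the WT level was left (log2 fold change -2.01, SE 0.123, adjusted p = 4.79e-06, edgeR). A noncoding gene on the opposite strand covers 5076 of its exon bases, so its counts may include that transcript. Tshz3 (chr7:36697737-36773553), required for smooth muscle of the ureter, had 12.2, 22.2 and 18.2 counts in WT against 198, 184 and 311 in KO. Here the KO libraries were all above WT, with a fitted log2 change of 3.83 (SE 0.300, edgeR adjusted p = 1.76e-05). Tshz1 was at 1259, 1052 and 1124 counts in WT against 1105, 809 and 967 in KO, the groups overlapped, and it did not pass (adjusted p = 0.363).

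Emx2 (gene 13797, chr19:59458640-59465357), which patterns the cerebral cortex and the urogenital system, had the largest fall of the 26 tested genes. It had 1390, 1181 and 1135 counts in WT against 156, 228 and 225 in KO. In KO 17.7% of the WT level was left (57.5 ± 5.42 CPM against 10.2 ± 1.98 CPM, mean ± SD, n = 3), with a fitted log2 change of -2.50 (SE 0.156, edgeR adjusted p = 5.52e-06). It shares 264 exon bases with the antisense gene Emx2os. Otx1 (chr11:21994764-22004051), an orthodenticle factor of forebrain, inner ear and eye, had 3661, 3608 and 3509 counts in WT against 2759, 1910 and 2152 in KO. The WT libraries were close together and all above KO, and 68.3% of the level was left (log2 fold change -0.55, SE 0.136, adjusted p = 0.00752, edgeR).

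The 7 Meis and Pbx genes were all counted in both genotypes, and 2 of them changed. Meis2 (gene 17536, chr2:115861264-116075147) had 3189, 2955 and 2966 counts in WT against 1140, 1032 and 1169 in KO. The spread was small in both groups, and 39.6% of the WT level was left (141 ± 4.37 CPM against 55.9 ± 3.60 CPM, mean ± SD, n = 3, log2 fold change -1.34, SE 0.0860, adjusted p = 6.35e-06, edgeR). Its paralogue Meis1, at 1176, 1277 and 1287 counts in WT against 1408, 1182 and 1239 in KO, overlapped between groups and did not pass (log2 fold change 0.14, SE 0.102, adjusted p = 0.251). Meis3, the lowest of the 3, had 77 to 98 counts in WT and 56 to 60 in KO, and its log2 fold change of -0.46 did not pass (adjusted p = 0.0643) but did so in 4 of 15 alternatives.

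Pbx3 had 922, 983 and 993 counts in WT against 688, 639 and 771 in KO, a fitted log2 change of -0.36 (SE 0.101, edgeR adjusted p = 0.0138). Without WT replicate 3 its adjusted p was 0.0517. Pbx2 and Pbx4 had log2 fold changes of -0.19 and -0.63 and did not pass (adjusted p = 0.115 and 0.164), though each did in 3 of 15 alternatives. The summed level of the Meis genes was 66.2 ± 0.998 FPKM in WT and 38.6 ± 2.30 FPKM in KO (n = 3 each, mean ± SD).

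The Hox genes, which encode position along the trunk and limbs, had low counts in both groups. Of 22 Hox rows 18 had at most 3 counts in every library, 0 passed the count filter and the highest count of all was 11. Summed over the 22 rows, each library held 17.8, 22.6 and 23.1 counts in WT against 11.9, 10.2 and 20.1 in KO, so the sums overlapped. Hoxd8 had 7, 5 and 11 counts in WT and 0 in each KO library, at least 7.11-fold lower against 3 counts over the KO group. Hoxc6 had 2.81, 5.54 and 3.01 counts in WT against 1.47, 0 and 2 in KO, whereas Hoxc10 had 0, 1 and 0 in WT and 1, 2 and 7 in KO. Hoxb3 reached 4.03 counts in WT 3. All 22 fell below the count filter of the main test. Without that filter Hoxd8 was lower in KO by edgeR (adjusted p = 0.00562) and by DESeq2 (adjusted p = 0.00324), whereas Hoxc6 did not pass (adjusted p = 0.128 and 0.291). Hoxc13, a gene of hair and nail, had 0 counts in 5 libraries and 2 in KO 3.

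**Figure D3:**
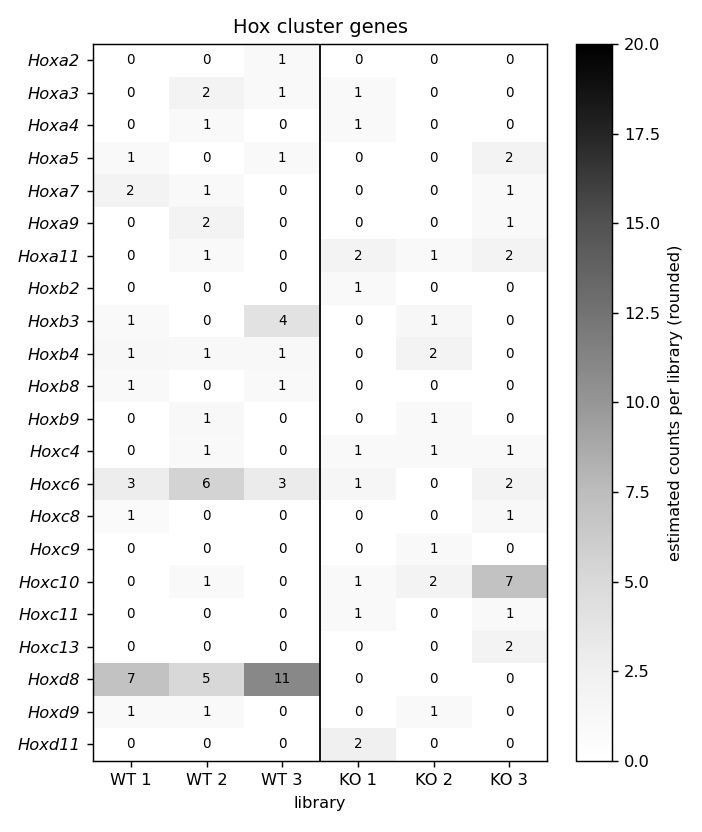
Estimated counts, rounded, of the 22 Hox genes of the table in 3 WT libraries (left of the line) and 3 KO libraries (right of it), with darker cells for higher counts. Only Hoxb3, Hoxc6, Hoxc10 and Hoxd8 exceed 3 counts in a library, and the highest value is 11, for Hoxd8 in WT 3.

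Of the 29 undetected genes, at most 3 counts in every library, 28 were Hoxa2, Hoxa3, Hoxa4, Hoxa5, Hoxa7, Hoxa9, Hoxa11, Hoxb2, Hoxb4, Hoxb8, Hoxb9, Hoxc4, Hoxc8, Hoxc9, Hoxc11, Hoxc13, Hoxd9, Hoxd11, Irx6, Lhx2, Lhx3, Lhx4, Lhx5, Lhx6, Lhx9, Msx3, Prrx2 and Six6. All 6 LIM homeobox genes of the table were among them, Lhx2 of the eye field and hair follicle stem cells included, with 1, 2 and 1 counts in WT and 0 in each KO library. The paired-related gene Prrx1, a mesenchymal factor whose Cre driver marked corneal stromal cells in the study's tracing, had 7.92, 4 and 3.07 counts in WT against 2, 8.33 and 3.36 in KO. Alx4, of craniofacial and limb mesenchyme, had 6.2 to 9.26 counts in WT and 2.05 to 13.2 in KO. Both overlapped between the groups.

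Compared per length of gene, the order of the homeobox genes differed between the genotypes. In WT the highest mean levels were those of Otx1 (60.7 ± 1.49 FPKM), Meis2 (43.0 ± 1.65), Tshz2 (29.3 ± 2.73), Emx2 (23.4 ± 2.65) and Meis1 (20.8 ± 1.90 FPKM, mean ± SD, n = 3). The neighbours Emx2 and Meis1 in this order differed by less than the SD of Emx2. In KO the order was Pitx1 (81.6 ± 17.5 FPKM), Barx2 (58.1 ± 5.83), Otx1 (38.3 ± 7.06), Meis1 (21 ± 2.05) and Meis2 (16.0 ± 0.786 FPKM, mean ± SD, n = 3). Pitx1 had ranked 20 and Barx2 17 of 67 in WT. The number of homeobox genes with a mean above 1 FPKM was 17 in WT and 22 in KO.

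As a share of the summed FPKM of all 67 genes, a pair chosen after its values were seen, Pitx1 and Barx2, made up 0.436% to 0.759% in the WT libraries and 42.2% to 44.2% in the KO libraries. Otx1, Meis2, Tshz2 and Emx2 together made up 56.8% to 59.1% in WT and 19.3% to 20.7% in KO. The summed level itself was 280, 265 and 266 FPKM in WT and 376, 287 and 309 FPKM in KO.

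**Figure D4:**
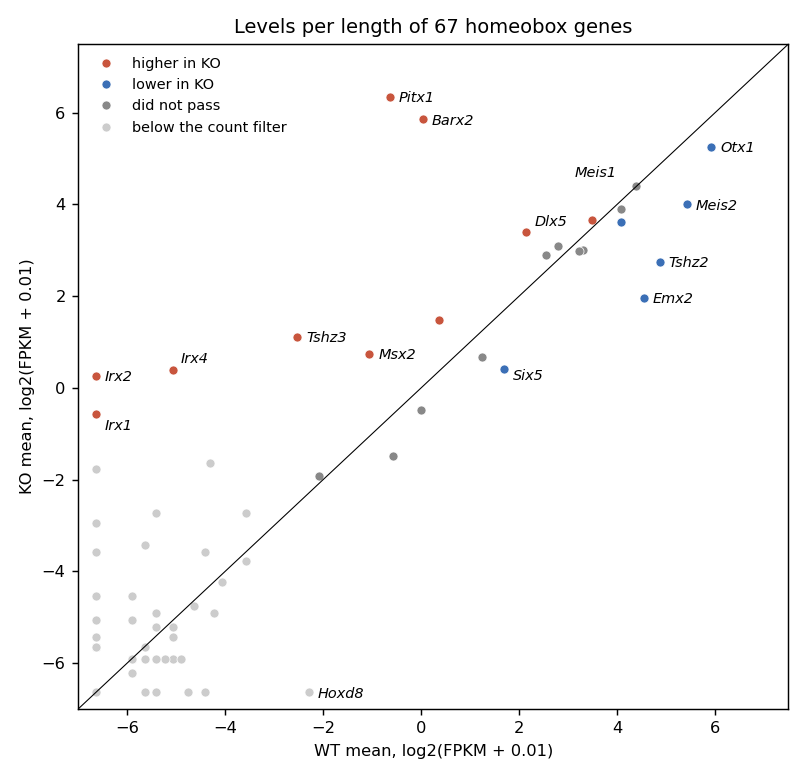
Mean level of the 67 homeobox genes in KO (vertical) against WT (horizontal), both as log2(FPKM + 0.01) over 3 libraries, with the line of equal levels. Red, blue and dark grey points are tested genes that were higher, lower or did not pass, and pale points fell below the count filter. Pitx1 and Barx2 stand far above the line at the top, while Otx1, Meis2, Tshz2 and Emx2 lie under it at the right.

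The KO libraries were not alike. Of the 10 homeobox genes higher in KO, 8 were highest in KO 1, 2 in KO 3 and 0 in KO 2. The same count was not made over all genes higher in KO, so this need not be particular to the homeobox genes. The summed level of the epidermal markers was also highest in KO 1, at 12300, 8010 and 8800 FPKM in KO 1, 2 and 3. Single markers differed in this. Krtdap was highest in KO 2 (2780, 3270 and 2600 FPKM) and Lce3a in KO 3 (401, 194 and 403 FPKM). The other tested markers, Krt1, Krt10, Lor, Flg and Ivl, were highest in KO 1. The part of the epidermal markers in the homeobox values was not tested. Without KO replicate 1, 9 homeobox genes were called higher, all but Irx5. The epidermal markers remained high in KO 2 and KO 3, so leaving out KO 1 did not test their part.

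Markers of other cells moved with genotype as well (summed levels are over each whole list). Of 7 tested keratocyte and fibroblast markers 5 were higher in KO, 1 was lower and 1 did not pass, with a summed level of 5.79 to 7.61 FPKM in WT and 12.8 to 19.6 FPKM in KO. Dcn, a proteoglycan of the stroma, had 1, 0 and 1 counts in WT against 153, 24 and 93 in KO, Thy1 had 0 to 5 against 84 to 191, and Lum, a keratocyte proteoglycan, had 0 counts in WT against 2, 4 and 1 in KO. Pdgfra, the marker that was lower, had 275, 235 and 330 counts in WT against 23, 28 and 21 in KO. Of 7 tested markers of conjunctival and mucosal epithelium 6 were higher and 1 lower (1940 to 2610 FPKM in WT, 28700 to 36500 FPKM in KO), and Muc5ac, the goblet cell mucin, had 0 counts in each WT library and 141, 15 and 214 in KO. The lower marker, Muc4, had 157574 to 178587 counts in WT and 55596 to 75735 in KO. Of 6 tested leukocyte markers 4 were higher and 1 lower (82.8 to 97.6 FPKM in WT, 103 to 139 FPKM in KO). Of the 4 corneal endothelial markers tested 2 were higher, and the single tested markers of vessels and of muscle were each higher, at summed levels of 0.25 to 0.26 and 0.33 to 0.46 FPKM in KO. Melanocyte markers were lower in 2 of 3, those of retina and lens higher in 1 and lower in 1 of 2, and none of the hair follicle markers had enough counts. The part of these cells in the homeobox differences was not tested.

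Homeobox genes outside the named families (PAX, POU, CUT, ZF and other classes, listed as background) were lower more often than higher. Of 101 listed, 75 had a row, 27 were tested, 2 were higher in KO, 17 lower and 8 did not pass, with a median log2 fold change of -0.56, beside 31.8% higher and 30.2% lower with a median of 0.01 over all tested genes. The 17 of 27 lower compare with 6 of the 26 above, a difference that was not tested. Satb1, a chromatin organizer, had 1008, 715 and 930 counts in WT against 67, 67 and 79 in KO (log2 fold change -3.53, SE 0.165, adjusted p = 1.48e-06, edgeR). Cux2, a cut-class factor, had 597, 259 and 251 counts in WT and at most 37.6 in any KO library (log2 fold change -3.45). Pax6, the master factor of the eye, had 15150 to 15998 counts in WT and 4762 to 5331 in KO (log2 fold change -1.54). Pou3f1, a POU factor of squamous epithelium and Schwann cells, went the other way, with 0, 1 and 3 counts in WT against 230, 146 and 259 in KO (log2 fold change 7.29, SE 0.502, adjusted p = 9.20e-06, edgeR). The other gene higher in KO, Pknox2, had 1 to 2 counts in WT and 11 to 15 in KO.

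The Polycomb and Trithorax proteins keep Hox genes off or on through histone marks. A list of 36 Hox chromatin regulators held such proteins and partners, and also Ctcf, which is neither and was lower. Of the 36 listed 36 were tested, 3 were higher in KO, 17 lower and 16 did not pass, with a median log2 fold change of -0.29. Over all tested genes 31.8% were higher and 30.2% lower, and the difference was not tested. The falls were led by Phf1, a partner of Polycomb complex PRC2 (1143, 950 and 1114 counts in WT, 282, 254 and 263 in KO, log2 fold change -1.90), followed by the PRC1 subunits Cbx7 (log2 fold change -1.61) and Phc1 (-1.26). The 3 rises were small and were those of Pcgf6 (log2 fold change 0.51), Dpy30 (0.43) and Ash2l (0.30), the last 2 being core subunits of the Trithorax-type methyltransferases. Dpy30 turned to -0.39 under the correction for gene length (adjusted p = 0.00765), and Ash2l did not pass with library totals only (adjusted p = 0.0691) or without WT replicate 1 (adjusted p = 0.0503). The catalytic subunits of PRC2, Ezh2 and Ezh1, had log2 fold changes of -0.36, which did not pass but did in 4 of the alternatives, without WT replicate 3 among them (adjusted p = 0.0406), and -0.87, which did.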

How the data were processed

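RNA of separated corneal epithelium from 3 WT and 3 KO samples was sequenced by the authors as single-end reads on a BGI instrument after ribosomal RNA depletion, whereas the labels name an Illumina kit. Reads were filtered with SOAPnuke, aligned with Bowtie2 2.2.5 and quantified with RSEM 1.2.12. The labels name mm9, but the chromosome accessions in the table are those of GRCm38, and 67 of 67 genes overlapped their RefSeq GRCm38 positions. The authors deposited estimated counts, FPKM values normalized to gene length and library total, and TPM values, which were only checked to sum to 1000000. Estimated counts divide ambiguous reads among genes. In each library 30.4% to 32.3% of the genes had a value that was not whole, which is not the share of ambiguous reads. The columns of the authors' own comparison and of group means were not used, and 0 per-library columns were left unmatched. Whether counting used strand is not stated, and 19 of the 67 genes share exon bases with a gene on the opposite strand.

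Estimated counts were rounded and tested with edgeR 4.0.16 (R 4.3.3, TMM, filterByExpr, glmQLFit and glmQLFTest, a model of genotype alone) and p-values adjusted by Benjamini-Hochberg over 13305 genes. TMM factors were 1.01 to 1.05 in WT and 0.952 to 0.990 in KO. The SE was derived as the size of the log2 fold change over the root of its F statistic. Groups at 0 were given 3 counts over the 3 libraries, and groups with 1 to 3 counts a count ratio with an exact 95% interval, which covers only counting error, since PCR duplicates were not marked. Alternatives were RLE factors, library totals, DESeq2 1.42.0, no filter, a mean count of at least 50, limma 3.58.1 on log2(FPKM + 1) and log2(FPKM + 0.1), a length correction, the replicate number as a block and each library left out. Python 3.11.15, pandas 2.3.3, numpy 2.4.6, scipy 1.17.1 and matplotlib 3.10.9 were also used, and the fits were tested on simulated data. The genes and lists were chosen with earlier results of these data known. Counts in every library were given for called genes with groups apart and a mean of at least 100 in the higher group, and for others of the families by role. From each further list the 3 largest rises and falls with that mean were named, and exceptions (Pknox2, Ezh1, Ezh2 and the cell markers) were chosen after their values were seen. The values of some further genes of these families are not reported here.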

Additional observations from a re-analysis of the deposited data

How the results depend on the processing

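Of the 16 called homeobox genes 14 kept their call and direction in every alternative that could test them, the exceptions being Irx5 and Pbx3. With a mean count of at least 50 the number higher in KO was 6 in place of 10, because Irx1, Irx2, Irx4 and Msx2 were no longer tested. It was 12 with DESeq2 and with no filter, where 7 were lower in place of 6, and 9 to 13 without single libraries. With library totals only 9 were higher and 8 lower, under the length correction 10 and 8, and with either limma fit 9 and 9. Without WT replicate 3 the number lower was 5. Of the genes below the filter, Hoxd8, Msx1 and Six3 were called by both DESeq2 and edgeR with no filter. On log2(FPKM + 1), a scale that understates low genes, Tshz3 was at 1.42, Msx2 at 0.82 and Six2 at 0.70, and each kept its call. Among genes that did not pass, Dlx1 ran from -0.24 to 0.58 when libraries were left out, and under the length correction Tshz1 turned to 0.12 and the called Dpy30 to -0.39. Other homeobox genes higher in KO numbered 5 with DESeq2, 7 with no filter, 1 with a mean count of at least 50 and 2 to 4 without single libraries (4 without KO replicate 2 or any WT replicate), in place of 2, and Hox chromatin regulators higher in KO 5 under the length correction, in place of 3. Apart from the filters, which change the genes tested, the cause was not tested. No scaling moved the median of all genes by more than 0.09. Same-numbered libraries showed no clear shared deviation (r of deviations 0.0345, -0.00998 and 0.0606, beside -0.159 to 0.123 for differently numbered ones). The labels do not state a pairing, and these values cannot exclude it. With the replicate number as a block 9 homeobox genes were higher and 6 lower, and Irx5 lost its call (adjusted p = 0.0663).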
